A study of Mus musculus with 6 samples.

Results

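The chemokine gene Cxcl12 and its receptor gene Cxcr4, 2 of the 20394 genes in the deposited table, were followed across single CD45+ cells from the inflamed mouse knee. The members were taken by gene symbol alone, and both symbols were present. Their UMIs (unique molecular identifiers, each standing for a captured mRNA molecule) were read in 32953 cells from 6 libraries. Synovial digests came from male C57BL/6 mice, bought at 8 weeks of age, with antigen-induced arthritis: all animals had been immunised under the skin with 10 μg of methylated bovine serum albumin (mBSA) in adjuvant and received 100 μg of mBSA into the knee on day 21. From that day 2 of the samples were given vehicle (PBS) and 4 were given 300 μg of PEPITEM, a peptide studied for its effect on leukocyte entry into tissue, both into the peritoneum, and joints were taken 3 days after the challenge. The barcodes carry a library number from 1 to 6 but no sample name, so the libraries were not assigned to PBS or PEPITEM, no treatment effect was computed, and each level is given as the 6 libraries summed with the lowest and the highest library. Nothing here is a test between treatments, and intervals cover counting error only.

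Cxcl12, also called stromal cell-derived factor, is a chemokine that stromal cells secrete and that binds the G protein-coupled receptor Cxcr4 on leukocytes. In bone marrow this pair holds stem cells, B cell precursors and neutrophils close to reticular stromal cells, and neutrophils leave as signalling through Cxcr2 outweighs that through Cxcr4. Aged neutrophils in blood are known to carry more Cxcr4 again, and synovial fibroblasts of inflamed joints are a known source of Cxcl12. Surface receptor is also set by uptake into the cell after ligand binding, which mRNA counts do not show. In the GENCODE annotation of mouse build mm10, Cxcl12 (ENSMUSG00000061353) is a protein-coding gene on the plus strand of chromosome 6, from 117168535 to 117181367, with 4 annotated transcripts of which the coding ones have 3 different 3′ ends. Cxcr4 (ENSMUSG00000045382) is a protein-coding gene on the minus strand of chromosome 1, from 128588199 to 128592293, with 2 annotated transcripts. The 3′ libraries gave 1 count per gene and do not separate these transcripts.

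Libraries held 2919 to 9345 cells at a median of 9923 to 14001 UMIs per cell, and 138 barcode sequences occurred in 2 libraries. The cells were clustered without either member and named from marker lists, which gave 21 classes of at least 50 cells holding 32566 cells; a name means that the cells were like that type. Classes usual in bone marrow (stem and progenitor-like, granulocyte precursor-like, cycling immature neutrophil-like and B cell precursor-like cells) made up 19.1% of all cells, from 8.91% to 29.1% by library. Immature neutrophil-like cells (n = 3652), a stage also usual in marrow, are not in that count. Whether any of these cells came from marrow opened during dissection was not tested.

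Cxcr4 was a common transcript in these cells and Cxcl12 a rare one. Cxcr4 gave 82280 UMIs, 169 CPM (counts per 1000000 UMIs of the cells in question), and 65.4% of cells had at least 1 (Wilson 95% interval 64.9% to 65.9%). Cxcl12 gave 2961 UMIs, or 6.09 CPM, and 0.771% of cells had at least 1 (0.682% to 0.871%). Drawn down to 2000 UMIs per cell, which left out 579 shallower cells, the expected shares were 28.9% for Cxcr4 and 0.289% for Cxcl12. By library, Cxcr4 over all cells ran from 134 to 239 CPM with a median of 179.9, and Cxcl12 from 0.937 to 16.5 CPM with a median of 6.43.

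Per UMI, Cxcr4 was highest in small pre-B cell-like cells, which rearrange the light chain, and in mature neutrophil-like cells, and lowest in fibroblast-like cells. Small pre-B cell-like cells (n = 2091) stood at 353 CPM, with libraries from 279 to 404. Mature neutrophil-like cells (n = 5912) stood at 349 CPM, with libraries from 292 to 512. These were followed by mature B cell-like cells at 261 CPM (libraries 237 to 307), NK cell-like cells at 246 CPM (184 to 303) and inflammatory macrophage-like cells at 228 CPM (165 to 306). T cell-like (183 CPM), resident Lyve1 macrophage-like (178 CPM) and classical monocyte-like cells (170.3 CPM) lay near one another in the middle of the order. Dendritic cell-like (91.4 CPM), granulocyte precursor-like (72.9 CPM), immature neutrophil-like (70.2 CPM) and stem and progenitor-like cells (61.2 CPM) lay near the bottom, above fibroblast-like cells at 39.6 CPM. In the order of 21 classes the ranges of the libraries overlapped between all 20 pairs of neighbours, so no class was set apart from the next. Across larger steps they were apart: every library of the mature neutrophil-like cells, and likewise of the small pre-B cell-like cells, lay above every library of 13 of the 20 other classes. Within each library mature neutrophil-like cells ranked 1 or 2 of 21, small pre-B cell-like cells between 1 and 3, and fibroblast-like cells last.

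**Figure D1:**
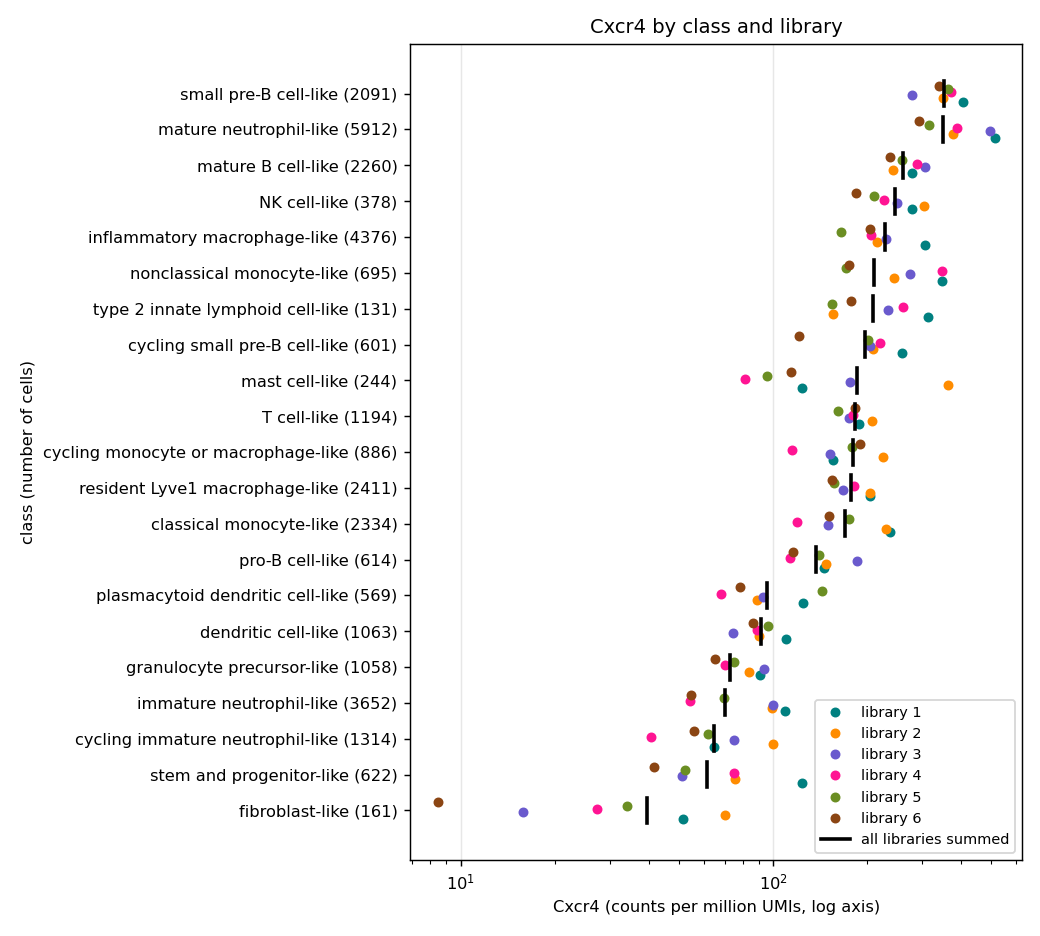
Cxcr4 in CPM (log axis) for each class, with a point for each of the 6 libraries and a bar for the libraries summed; the number of cells is in brackets. Small pre-B cell-like and mature neutrophil-like cells are at the top at 353 and 349 CPM, fibroblast-like cells at the bottom at 39.6 CPM, and the points of neighbouring classes overlap.

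The order depended on whether the level was taken per UMI or per cell. Inflammatory macrophage-like cells were deep (median 19634 UMIs) and held 5.10 Cxcr4 UMIs per cell, against 1.96 in mature neutrophil-like cells (median 4919 UMIs) and 1.87 in small pre-B cell-like cells (median 4970). A cluster of cycling cells held the most, 5.25 per cell. It was led by histone and cell cycle genes alone and is called monocyte or macrophage-like because Csf1r (88.0% of cells) and Adgre1 (59.6%) were detected in it beside the monocyte genes Ly6c2 and Ccr2 (97.6% each), with C1qa in 2.93%. By UMIs per cell mature neutrophil-like cells ranked 11 of 21 and small pre-B cell-like cells 13, while by the share of cells with a UMI after drawing down to 2000 UMIs they ranked 2 and 1, at 43.8% and 45.5%. Inflammatory macrophage-like cells alone held 27.1% of all Cxcr4 UMIs. In the fibroblast-like class 18.6% of cells had a Cxcr4 UMI (39.6 CPM), against 65.9% of mature neutrophil-like cells at a lower depth. Among its 124 cells without Ptprc, the gene of CD45, 7 had one (5.65%, 5.54 CPM, median depth 12977 UMIs). Cells chosen for lacking Ptprc hold less leukocyte mRNA by that choice, so this share is no measure of background.

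Among neutrophils, Cxcr4 per UMI was several-fold higher in mature than in immature cells in each library. Immature neutrophil-like cells, rich in mRNA of the secondary granule proteins Ltf, Camp, Ngp and Lcn2, stood at 70.2 CPM (n = 3652 cells; lowest library 54.3, median 84.5, highest 109). Mature neutrophil-like cells, marked by Cxcr2, Csf3r and Il1b, stood at 349 CPM (lowest 292, median 382, highest 512). The libraries of the 2 stages did not overlap, and the mature level was the higher in each of the 6, by 4.97-fold with all summed (95% counting interval 4.78 to 5.16) and by 3.80-fold to 7.12-fold within a library. Of 6388 genes at or above 5 CPM, 25.1% were likewise higher in the mature stage without overlap between libraries. Per cell the step was smaller, 1.96 against 0.960 UMIs, because the mature cells held fewer UMIs (median 4919 against 11885), which made the immature-to-mature ratio 0.489 in place of 0.201. Drawn down to 2000 UMIs per cell, 43.8% of mature and 11.7% of immature neutrophil-like cells were expected to hold a Cxcr4 UMI. Whether the 2 stages came from the same site, joint or marrow, was not tested, so stage and site cannot be told apart.

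Within the stages the level differed by cluster in steps. The granule-rich cluster led by Ltf, Ngp and Camp had 36.4 CPM of Cxcr4 (libraries 32.2 to 54.4), the next, led by the late granule proteases Mmp8 and Mmp9, 70.2 CPM (66.0 to 94.2), and the first mature cluster, led by Retnlg and Stfa3, 137 CPM (133 to 167). The cluster led by Gm5483 and Stfa2l1 reached 313 CPM (263 to 470.4). The cluster led by Ifitm1, Ptgs2 and Irg1, which make an interferon-induced membrane protein and the enzymes of prostaglandin and itaconate synthesis, reached 629 CPM (586 to 710.0), with 79.1% of its cells positive at a median depth of 4047 UMIs. The ranges of these 5 clusters did not overlap between any neighbours in this order. At the finer clustering the highest cluster, led by Csf1, Ccrl2 and Il1a, stood at 789 CPM (743 to 893), and a cluster led by the interferon-stimulated genes Rsad2, Ifit1 and Ifit3 at 517 CPM (310.2 to 763, the lowest from 8 cells). Upstream of these, granulocyte precursor-like cells with the azurophil granule genes Elane, Mpo and Prtn3 had 72.9 CPM (65.2 to 93.7), and cycling immature neutrophil-like cells 64.9 CPM (40.8 to 99.6). UMIs of 7 immediate-early and heat shock genes (Fos, Jun, Egr1, Atf3, Dusp1, Hspa1a and Hspa1b), known to rise during warm enzyme digestion, were also higher along these clusters, from 1175 CPM in the one led by Ltf, Ngp and Camp to 5799 CPM in the one led by Ifitm1. This list was chosen after the values were seen, and its part in the Cxcr4 level was not tested here or in the clusters described later.

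An immature neutrophil-like cluster of 468 cells stood outside this order. It had 174.9 CPM of Cxcr4 (libraries 135 to 246) although granule mRNA made up 7.45% of its UMIs, against 10.6% in the cluster led by Ltf, Ngp and Camp and 1.88% in the first mature cluster. It also held 2532 CPM of Il1b and 1565 CPM of Cxcl2, against 180.1 and 65.1 CPM in the cluster led by Ltf, Ngp and Camp, and had a median of 17880 UMIs. Whether these cells hold the mRNA of more than 1 cell was not tested. Without this cluster the immature-to-mature ratio of Cxcr4 was 0.131 in place of 0.201.

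The same neutrophil-like cells, taken from the named clusters, were split into 5 equal bins by their share of Ltf, Camp, Ngp and Lcn2 UMIs. The bins gave the same order. These genes are among the markers that named the immature class, so the bins largely restate the stages and are no independent result. In the bin with the lowest share, at most 0.0838% of UMIs, Cxcr4 stood at 673 CPM (libraries 633 to 761) and 78.4% of cells were positive. The next bins stood at 378, 178 and 108 CPM. In the bin with the highest share, 8.55% to 22.9% of UMIs, it stood at 44.5 CPM (31.7 to 70.4) and 34.4% of cells were positive. The granule UMIs are part of the total behind CPM, and with those of the 4 granule genes and of S100a8 and S100a9 left out of the total the immature-to-mature ratio was 0.265.

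**Figure D2:**
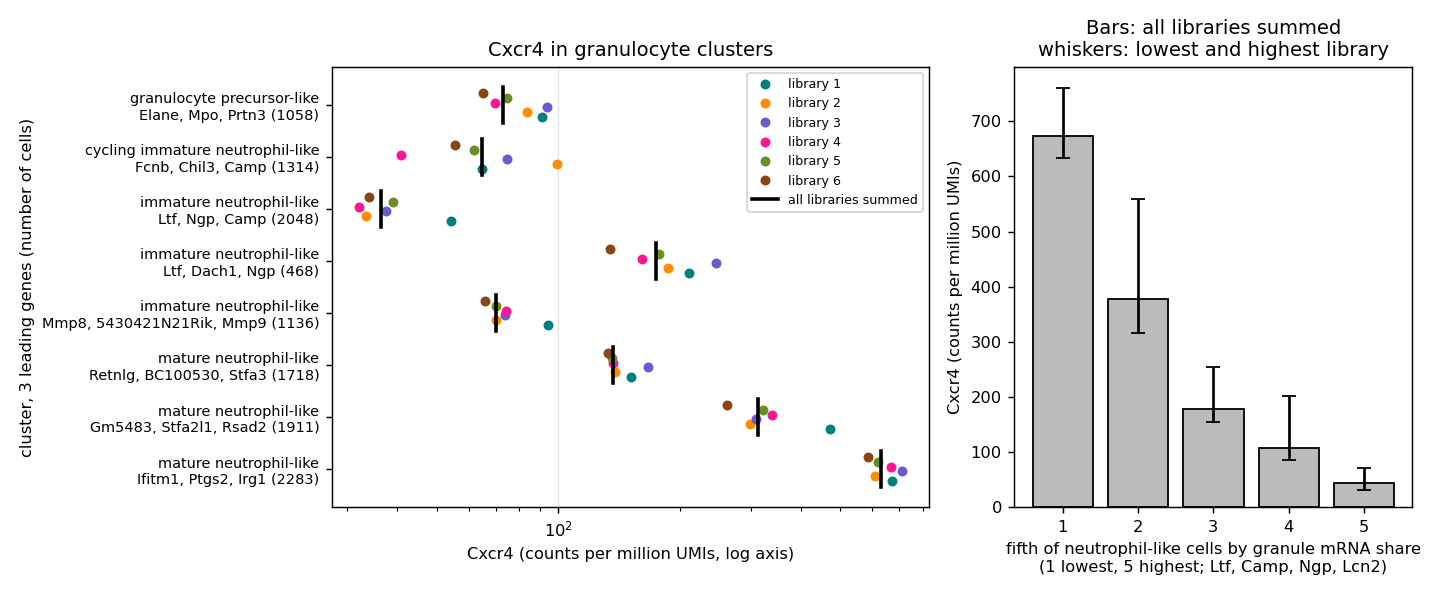
Left, Cxcr4 in CPM (log axis) in the 8 granulocyte clusters, named by their 3 leading genes, with a point for each library and a bar for the libraries summed. Right, Cxcr4 in 5 equal bins of the neutrophil-like cells by granule mRNA share, with whiskers from the lowest to the highest library; the level falls from 673 CPM in the first bin to 44.5 CPM in the last.

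Across the B lineage there was no single step between precursor and mature cells, since Cxcr4 moved up and down with stage. Pro-B cell-like cells, which carry the surrogate light chain genes Vpreb1 and Igll1, stood at 137 CPM (n = 614; libraries 113 to 185). Cycling small pre-B cell-like cells stood at 197 CPM (n = 601; 121 to 258) and small pre-B cell-like cells, with the recombinase gene Rag1, at 353 CPM (n = 2091; 279 to 404). Every library of the small pre-B cell-like cells lay above every library of the other 2 precursor classes. Mature B cell-like cells led by Ms4a1, the gene of CD20, stood at 229 CPM (n = 1429; 192 to 284), and those led by Bank1, Fcer2a and Ighd, marks of the naive recirculating B cell, at 322 CPM (n = 831; 289 to 343). The ranges of these mature clusters did not overlap, the Ighd cluster being the higher in each library. The Ms4a1 cluster had less Ighd mRNA (205 against 681 CPM) and more Rag1 mRNA (9.04 against 0.432 CPM). It may therefore hold less mature B cells, which was not tested. The small pre-B cell-like range overlapped both. A cluster that stayed unnamed, led by Jchain, Igha and Ighg2b, had 189 CPM (n = 334 cells, libraries 136 to 273).

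Summed over stages, B cell precursor-like cells had 243 CPM (n = 3306; libraries 184 to 310.2) and mature B cell-like cells 261 CPM (n = 2260; 237 to 307), and these ranges overlapped. The precursor-to-mature ratio was 0.932 (95% counting interval 0.894 to 0.971), but it lay between 0.757 and 1.12 within libraries, above 1 in libraries 1 and 2 and below 1 in the other 4. The ratio depends on counting the 1429 cells of the Ms4a1 cluster as mature, since the Ighd cluster alone stood at 322 CPM. Of 9612 genes at or above 5 CPM, 13% were higher in the mature and 22.3% in the precursor stage without overlap, and Cxcr4 was among neither. Per cell the direction was the opposite, with 2.02 UMIs in precursor and 1.56 in mature cells, a ratio of 1.30, and precursor cells had more in each of the 6 libraries.

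At the finer clustering the small pre-B cell-like cells fell into 3 clusters, whose Cxcr4 ranges overlapped. The cluster led by Tmem108 and Cecr2 had 218 CPM (n = 539; libraries 167 to 295.0), that led by Reln and Cacna1e 325 CPM (n = 749; 288 to 368) and that led by Sox4 and Rag1 467 CPM (n = 809; 211 to 591). The lowest library of the Sox4 cluster held 7 cells of it, and the other 5 ranged from 452 to 591 CPM, above every library of the other clusters. The 7 immediate-early and heat shock genes differed between the same clusters, at 285, 444 and 3446 CPM, and Jun alone stood at 2209 CPM in the Sox4 cluster.

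**Figure D3:**
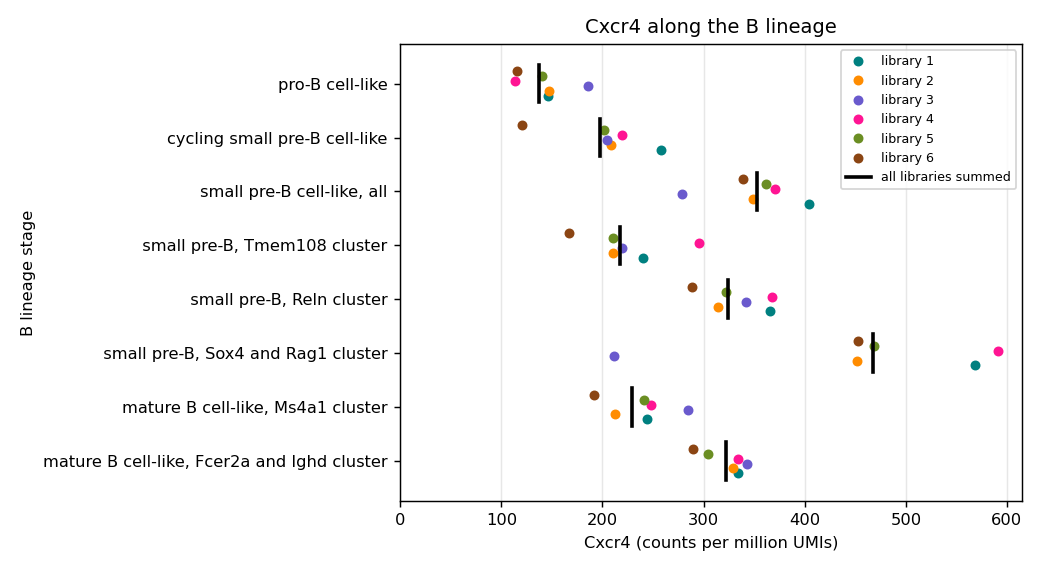
Cxcr4 in CPM at each B lineage stage, with a point for each library and a bar for the libraries summed; the indented rows are the finer clusters of the small pre-B cell-like cells. Pro-B cell-like cells are lowest at 137 CPM, the Sox4 and Rag1 cluster highest at 467 CPM, and the Fcer2a and Ighd cluster lies above the Ms4a1 cluster in each library.

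Classical monocyte-like cells held clusters with low and with high Cxcr4. The larger cluster, led by Vcan, Nrg1 and Plcb1, had 116 CPM (n = 1645; libraries 90.3 to 168). The other, led by Arhgef37, Gm26522 and the heat shock gene Hspa1a, had 291 CPM (n = 689; 256 to 419), and no library of the first reached the lowest of the other. The 7 immediate-early and heat shock genes stood at 1252 CPM in the first and 8276 CPM in the other. Clusters low in Cxcr4 differed in these 7 genes. Fibroblast-like cells had 6043 CPM of them with 39.6 CPM of Cxcr4. A finer mast cell-like cluster had 17481 CPM of them with 48.0 CPM of Cxcr4. Granulocyte clusters low in Cxcr4 had less of them. The values were 1175 CPM in the immature neutrophil-like cluster led by Ltf, Ngp and Camp, 1312 CPM in that led by Mmp8 and Mmp9, 1165 CPM in cycling immature neutrophil-like cells and 1690 CPM in granulocyte precursor-like cells. Joints were digested at 37 °C, and the part of digestion in these levels was not tested.

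The class named after nonclassical monocytes, the patrolling monocytes of blood, was mixed, which touches its Cxcr4 value of 211 CPM (n = 695, libraries 172 to 348). The muscle genes Acta1 (7.30 CPM) and Myl1 (6.35 CPM) were among its leading genes, but the finer clusters described next had no Acta1 UMI. At the finer clustering 221 of its cells held the nonclassical genes Ace (247 CPM), Adgre4 (518 CPM) and Cd300e (189 CPM) and had 330.4 CPM of Cxcr4. Another 443 cells held 7.84 CPM of Ace and 515 CPM of Ccr2, the receptor of classical monocytes, and had 182 CPM of Cxcr4. Both also held neutrophil mRNA, with S100a8 at 49660 and 60246 CPM.

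Among macrophages Cxcr4 also varied by cluster. The inflammatory macrophage-like cluster led by Ccl8 and Apoe had 249 CPM (n = 1920; libraries 187 to 331) and that led by Mmp19, Arg1 and Cxcl9 202 CPM (n = 2456; 128 to 281), with overlapping libraries. At the finer clustering a Cxcl9-led cluster had 157 CPM (n = 1043; 100.0 to 279), and an Arg1-led cluster 241 CPM (n = 1186; 179.7 to 314). Resident Lyve1 macrophage-like cells, the long-lived lining and vessel-side macrophages, held at the finer clustering a Ccl24 and Ednrb cluster at 219 CPM (n = 776; 200.2 to 259.7) and an Fxyd2 and Aqp1 cluster at 98.9 CPM (n = 1000; 49.8 to 155), whose libraries did not overlap. Related clusters were led by Vsig4, Sparc and Ltc4s, with the highest Cxcr4 of these at 267 CPM (n = 351; 170.3 to 329), and by Lyz1, Retnla and Fxyd2 at 143 CPM (n = 283; 80.8 to 160.1). The 7 immediate-early and heat shock genes were at 5887 CPM in the Ccl24 cluster and 7520 CPM in the Fxyd2 and Aqp1 cluster. They were at 5349 CPM in the Vsig4 cluster and 6655 CPM in the Lyz1 cluster. Among these clusters they were higher where Cxcr4 was lower. A further resident Lyve1 macrophage-like cluster, 143 cells at a median of 2120 UMIs, had 26.8 CPM of Cxcr4 from 12 UMIs. It had 908 CPM of the 7 genes, so both were low there. In the Cxcl9-led and Arg1-led inflammatory clusters the 7 genes were at 2082 and 3035 CPM, higher where Cxcr4 was higher.

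Lymphoid and rare granulocyte classes added a contrast that the coarser clustering hid. NK cell-like cells had 246 CPM (n = 378; libraries 184 to 303), above T cell-like cells at 183 CPM (n = 1194; 161 to 207) with overlapping ranges, and type 2 innate lymphoid cell-like cells had 209 CPM (n = 131; 155 to 313). The mast cell-like class stood at 186 CPM but ranged from 81.2 to 362 by library. At the finer clustering it came apart into mast cell-like cells with Mcpt4, Cma1 and Tpsb2 at 48.0 CPM (n = 191; 10.6 to 95.3, 10.5% of cells positive) and basophil-like cells with Mcpt8 and Il6 at 489.6 CPM (n = 53; 446 to 974, 94.3% positive). Library 2, the highest of the class, held 26 of the 53 basophil-like cells. Plasmacytoid dendritic cell-like cells had 95.8 CPM (n = 569; 67.9 to 143).

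Libraries also differed in Cxcr4 within classes. Library 1 was the highest in 9 of the 21 classes and library 2 in 7, while library 6 was the lowest in 8 and library 4 in 7. Over all cells, libraries 5 and 6 were lowest, at 141 and 134 CPM. In mature neutrophil-like cells the values were 512, 378, 494, 387, 316 and 292 CPM in libraries 1 to 6. The 7 immediate-early and heat shock genes in the same cells stood at 4688, 3668, 4156, 4234, 3837 and 3310 CPM. With the libraries not tied to samples these differences cannot be told apart from treatment, and none was tested.

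Cxcl12 was concentrated in a small number of fibroblast-like cells. Fibroblast-like cells, with Dcn, Prg4 and Col1a2 as leading genes, were 161 of the 32953 cells (0.489%) and held 2791 of the 2961 Cxcl12 UMIs (94.3%). Their level was 1013 CPM (exact Poisson 95% interval 976 to 1051), and 68.9% of them had at least 1 Cxcl12 UMI at a median depth of 14930 UMIs. They passed a CD45+ sort, although a UMI of Ptprc was found in 23.0% of them against 96.2% of all other cells. Prg4, the gene of lubricin made by the synovial lining, was found in 59.0% of the cells, and Pdgfra in 73.9%.

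The level was uneven between cells and between libraries. The median fibroblast-like cell had 3 Cxcl12 UMIs, the quartiles were 0 and 16, and 50 cells had none. The 10 cells with the most held 52.6% of the class's UMIs, and the highest cell alone held 707, or 25.3%. By library the level was 836, 4058, 1821, 245, 695 and 376 CPM in libraries 1 to 6, from 49, 9, 12, 11, 63 and 17 cells. Library 2 was the highest because of the single cell with 707 UMIs, and without the 2 cells that had an Adipoq UMI, of which this was one, library 2 stood at 585 CPM and the class at 750.3 CPM.

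**Figure D4:**
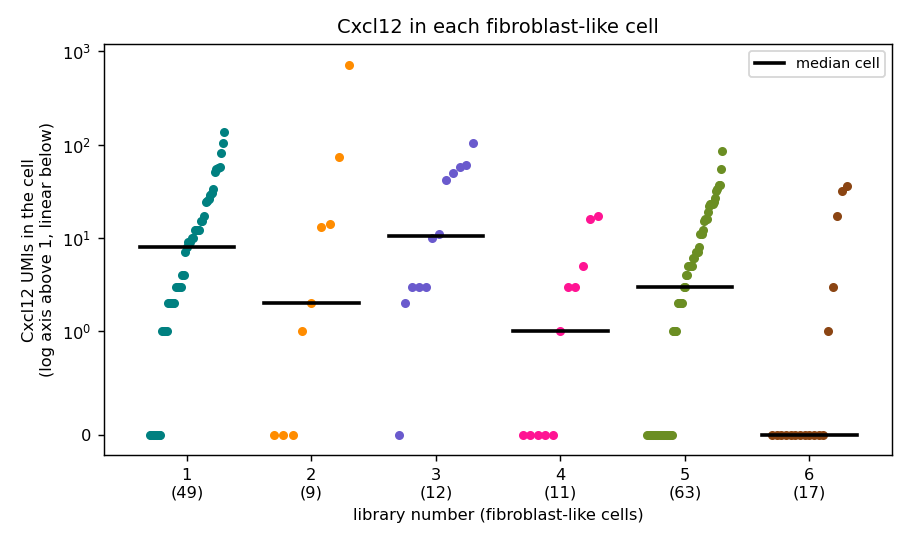
Cxcl12 UMIs in each of the 161 fibroblast-like cells by library (log axis above 1, linear below), with a bar at the median cell; the number of cells is in brackets. A cell in library 2 with 707 UMIs lies far above the next, at 136, and most cells of library 6 have none.

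The class held cells of more than 1 kind, and among the 10 with the most Cxcl12 the first and the fourth differed from the other 8 in carrying Lepr mRNA and little Dcn, the gene of the matrix proteoglycan decorin. The other 8 held 126 to 832 Dcn UMIs and 0 or 1 of Lepr, and the median cell of the class held 206 of Dcn. Lepr, the leptin receptor gene that marks reticular stromal cells of bone marrow, had at least 10 UMIs in 7 cells, and these held 31.2% of the class's Cxcl12 UMIs. This cut depends on depth, and a shallow cell of library 6 with 36 Cxcl12 UMIs of 1476 in all was not among the 7. The cell with 707 Cxcl12 UMIs, 29844 CPM of its own mRNA, also held 35 Lepr, 56 Kitl, 68 Ebf3, 8 Foxc1, 7 Adipoq and 34 Vcam1 UMIs, with 5 of Dcn, 1 of Col1a1, 2 of Prg4 and none of Ptprc. Kitl encodes stem cell factor, and Ebf3 and Foxc1 encode transcription factors of Cxcl12-rich reticular cells in marrow. A cell in library 3 with 104 Cxcl12 UMIs held 18 Lepr, 3 Kitl and 6 Ebf3 UMIs, and 1 of Dcn. The other 5 cells had 5 to 17 Cxcl12 UMIs and 338 to 1029 Dcn UMIs. Leaving out all 7 and keeping cells with at least 3 of the 6 fibroblast markers left 136 cells at 746 CPM, 69.9% of them positive, from 147 CPM in library 4 to 1343 CPM in library 3.

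The class also held 9 cells with at least 3 of 4 endothelial markers (Pecam1, Cdh5, Kdr and Emcn), and these had 102 Cxcl12 UMIs, or 734 CPM (66.7% of cells positive). Among all other classes 23 cells passed the same marker count and held 1 Cxcl12 UMI. Ackr3, the receptor that binds Cxcl12 and removes it without G protein signalling, was also concentrated in the fibroblast-like class, at 364 CPM (68.3% of cells positive) against at most 5.56 CPM in any other class. Cells of the class with an Ackr3 UMI had 793 CPM of Cxcl12. Those without one had 1739 CPM, and 605 CPM once the cells with an Adipoq UMI were left out.

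Most Cxcr4 UMIs of the fibroblast-like class lay in cells that also had CD45 mRNA. The class had 109 Cxcr4 UMIs, and 99 of them lay in the 37 cells with a Ptprc UMI, which stood at 104 CPM with 62.2% of cells positive. The 124 cells without Ptprc held 10 Cxcr4 UMIs, or 5.54 CPM. Choosing cells without Ptprc itself lowers leukocyte mRNA, so this level is no measure of Cxcr4 in fibroblasts. Cxcl12 was found at 524 CPM in the cells with Ptprc and at 1271 CPM in those without. The cells with Ptprc were deeper, at a median of 24415 against 12977 UMIs, and whether they hold the mRNA of a leukocyte beside that of a fibroblast was not tested.

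Outside the fibroblast-like class Cxcl12 was found at low levels, mainly in macrophages. The other 32792 cells held 170 Cxcl12 UMIs, 0.351 CPM, with at most 3 in a resident and 4 in an inflammatory macrophage-like cell. Resident Lyve1 macrophage-like cells had 64 UMIs, or 1.80 CPM (exact Poisson 95% interval 1.39 to 2.30), in 53 of 2411 cells. They had at least 4 UMIs in each library, from 1.02 to 2.66 CPM with a median of 1.64. Inflammatory macrophage-like cells had 57 UMIs, or 0.582 CPM (0.441 to 0.754), in 50 of 4376 cells, and every library of the resident class lay above every library of this one, the highest of which was 0.869 CPM. That separation did not hold without the 143 shallow resident cells (3 Cxcl12 UMIs, 6.69 CPM), since the cluster of 2268 cells that remained stood at 1.74 CPM with a lowest library of 0.823. At the finer clustering the Ccl24 and Ednrb cluster of resident cells stood at 2.28 CPM (36 UMIs) and the Fxyd2 and Aqp1 cluster at 1.79 CPM (22 UMIs), while a cluster of 351 macrophages led by Vsig4 and Sparc had none. Classical monocyte-like cells had 13 UMIs, or 0.356 CPM. T cell-like, NK cell-like and B lineage cells together had 2 UMIs in 7138 cells, or 0.0337 CPM (0.00408 to 0.122). Stem and progenitor-like cells had 0 UMIs in 622 cells, which allows a share of up to 0.482%, and mature B cell-like cells 0 in 2260, which allows up to 0.133%. These limits, set at 3 counts, are on cells with a UMI and not on cells that express the gene.

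Free mRNA from lysed cells can place single UMIs in cells that do not make a transcript. The shares were therefore set beside other classes and beside fibroblast mRNA. The share of positive cells was 2.20% in resident Lyve1 macrophage-like cells at a median depth of 12641 UMIs. It was 0.470% in dendritic cell-like cells (19121 UMIs), 0.386% in classical monocyte-like cells (14902) and 0.0280% in T, NK and B lineage cells (6188). Drawn down to 2000 UMIs these became 0.378%, 0.0646%, 0.0897% and 0.00320%. UMIs of 7 fibroblast genes (Col1a1, Col1a2, Col3a1, Dcn, Prg4, Pdgfra and Lum) were present in the resident class too, at 9.46 CPM against 33539 CPM in fibroblast-like cells. For every 100 of those UMIs there were 19.0 Cxcl12 UMIs in the resident class and 3.02 in fibroblast-like cells, and the first ratio was the higher in each of the 6 libraries. In library 2 the ratio was 29.5 in fibroblast-like cells, Lepr-rich cells included, against 44.4 in the resident class (4 beside 9 UMIs). With the Lepr-rich cells left out, it lay between 0.766 and 3.82 by library in fibroblast-like cells, and between 9.26 and 44.4 in the resident class. The Lepr-rich cells with 707 and 104 Cxcl12 UMIs held 5 and 1 Dcn UMIs, so this ratio cannot show free RNA from such cells. Resident cells with a Cxcl12 UMI held a UMI of the 7 genes in 5 of 53 cells (9.43%), against 10.1% of those without. In the inflammatory class the corresponding shares were 10 of 50 cells (20%) and 5.34%, and the ratio was 18.0 per 100. The higher ratio was not particular to macrophages, since every class other than the fibroblast-like one that had a Cxcl12 UMI exceeded 3.02. Where the 7 genes had few UMIs, 1 Cxcl12 UMI was enough for this, as in pro-B cell-like cells (1 beside 2). T, NK, mature B, small pre-B, stem and progenitor and type 2 innate lymphoid cell-like cells had no Cxcl12 UMI and thus a ratio of 0. Ratios from so few UMIs cannot set classes apart. The ratio was 40.6 in classical monocyte-like cells (13 Cxcl12 UMIs), 37.5 in cycling monocyte or macrophage-like cells (6 UMIs) and 20.8 in nonclassical monocyte-like cells (5 UMIs). It was 6.52 and 5.61 in mature and immature neutrophil-like cells (6 UMIs each). The authors had corrected the counts for free RNA before deposit. The part of that step, and of any free RNA left, in these shares and ratios was not tested.

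**Figure D5:**
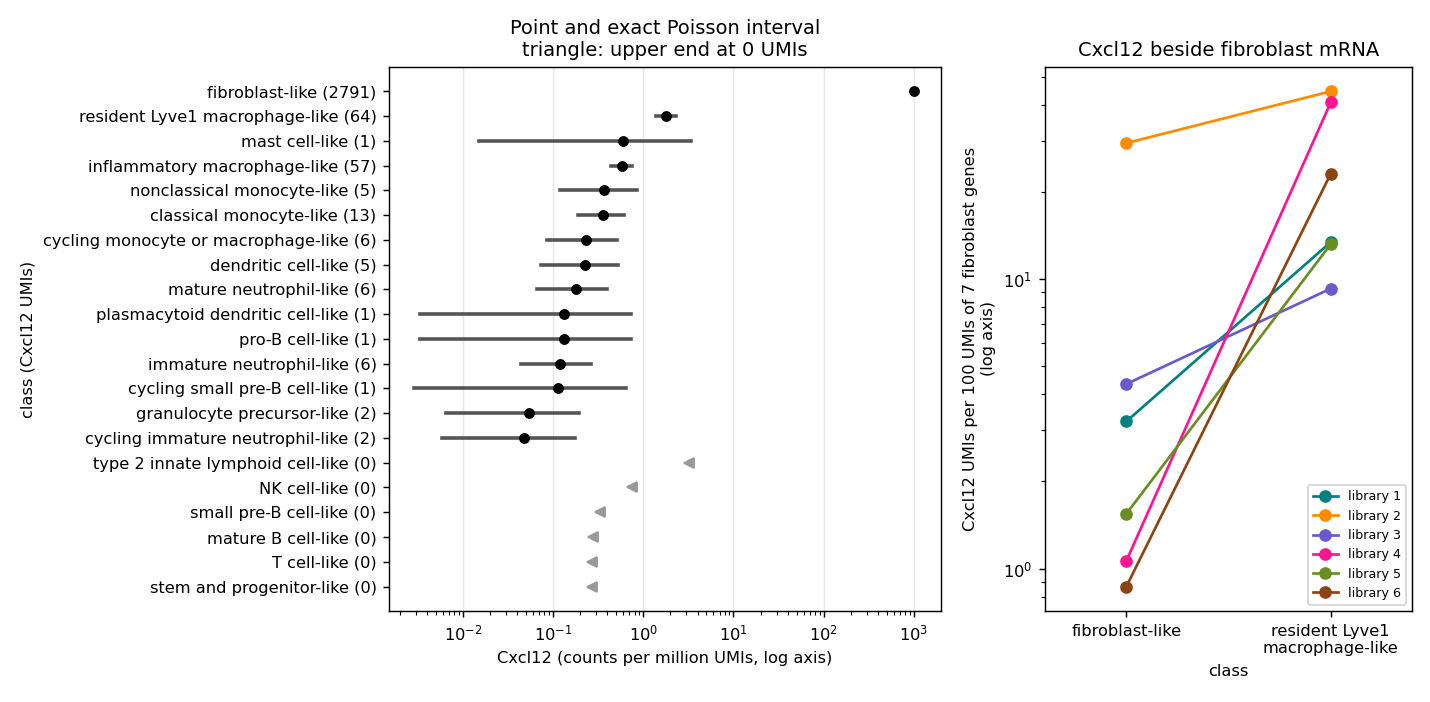
Left, Cxcl12 in CPM (log axis) by class, as a point with its exact Poisson interval, or as a triangle at the interval's upper end where no UMI was found; UMIs are in brackets. Right, Cxcl12 UMIs per 100 UMIs of 7 fibroblast genes in fibroblast-like and resident Lyve1 macrophage-like cells, a line for each library; each line rises from the first to the other class.

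The other genes of the pathway, a list of 28 made up of scavengers, further ligands, proteases, signalling regulators and retention or exit receptors, were read in the same 2 stage comparisons. All of these genes could enter the clustering, and Cxcr2 and Csf3r are among the markers that named the mature neutrophil-like class, so their values describe the stages and are no independent result. Of the 28, 17 reached 5 CPM in neutrophil-like cells. Between stages 7 were higher in the mature and 2 in the immature cells in every library, and 8 overlapped, against 25.1% and 21.4% of all 6388 genes. The median log2 ratio of mature to immature was 0.45 over the 17 and -0.01 over all genes. Cxcr2, the receptor that draws neutrophils out of marrow, was at 699 CPM in mature and 211 CPM in immature cells (log2 ratio 1.73). Csf3r, the receptor of granulocyte colony-stimulating factor, was at 1215 and 272 CPM (2.16), and Cxcr4, which took no part in the clustering, had a log2 ratio of 2.31. Rgs1 and Rgs2, which shorten G protein signals, were higher in the mature cells (log2 ratios 2.53 and 0.80), as were the alpha 4 integrin gene Itga4 (1.19), the ligand gene Mif (1.91) and the receptor kinase gene Adrbk1 (0.58). The receptor kinase and arrestin genes were split. Unlike Adrbk1, the kinase gene Grk6 was lower in the mature cells (-0.76). The arrestin gene Arrb2 was also lower (-0.84), while the arrestin gene Arrb1 (0.45) overlapped.

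In the B lineage 18 of the 28 genes reached 5 CPM. Of these 4 were higher in mature cells in every library, 4 were higher in precursors and 10 overlapped, against 13% and 22.3% of all 9612 genes, with a median log2 ratio of 0.16 over the 18 and -0.09 over all genes. S1pr1, the sphingosine phosphate receptor that draws lymphocytes into blood, stood at 180.4 CPM in mature and 81.8 CPM in precursor cells (log2 ratio 1.14). Cd74, the Mif receptor and class II chaperone, stood at 7895 against 448 CPM (4.14), and Grk6 (0.92) and Rgs1 (2.55) were also higher in mature cells. Hmgb1, whose protein can pair with Cxcl12, stood at 2442 CPM in precursor and 456 CPM in mature cells (-2.42), and Dpp4, the peptidase that trims Cxcl12, at 298 and 137 CPM (-1.13). The precursor sum of Hmgb1 includes cycling small pre-B cell-like cells, its highest class at 4313 CPM. Adrbk1 (-0.92) and the beta 1 integrin gene Itgb1 (-0.46) were higher in precursors as well. Grk6 and Adrbk1 thus ran in opposite directions in neutrophils and in the B lineage, though the difference between lineages was not tested.

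Across classes several stromal partners of Cxcl12 were highest where it was. Lepr (98.4 CPM), Foxc1 (79.5 CPM), Kitl (106 CPM) and Il7 (5.81 CPM, from 16 UMIs) were each highest in fibroblast-like cells, and Kitl was next highest in resident Lyve1 macrophage-like cells at 48.4 CPM. Vcam1, a ligand of alpha 4 beta 1 integrin, was about as high in granulocyte precursor-like cells (99.3 CPM) as in fibroblast-like cells (98.0 CPM). Within the fibroblast-like class, Cxcl12 was higher in cells with Lepr than in those without (1642 against 771 CPM). The same held for Kitl (1342 against 819 CPM) and Vcam1 (1536 against 661 CPM). With the cells holding an Adipoq UMI left out, Cxcl12 was lower in cells with Lepr (694 against 771 CPM) and with Kitl (631 against 819 CPM). For Vcam1 it was still higher (886 against 661 CPM). The proteases that cleave Cxcl12 and Cxcr4 in mobilised marrow were in the granulocytes, Elane (6924 CPM) and Ctsg (2435 CPM) in granulocyte precursor-like cells and Mmp9 in mature neutrophil-like cells (1827 CPM). Cd69, which opposes S1pr1 at the surface, stood at 361 CPM in the mast cell-like class, which includes the basophil-like cells, and at 359 CPM in type 2 innate lymphoid cell-like cells. Rgs1 stood at 1967 CPM in the mast cell-like class.

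The genes whose level over the 21 classes was most like that of Cxcr4, by Pearson correlation of log2(CPM + 1) among 9624 genes at or above 5 CPM, were Clk4 (0.88), Wipf2 (0.83), Syf2 (0.83), Ptbp3 (0.83) and Gm26740 (0.82). Clk4 stood at 110.0 CPM in small pre-B cell-like cells and Gm26740 at 986 CPM in mature neutrophil-like cells, their highest classes. The genes most like Cxcl12, among 12556 genes at or above 1 CPM, were Postn, Col3a1, Mgp, Col12a1 and C1s1, each with a correlation of 0.99 and each highest in fibroblast-like cells, from 193 CPM for Col12a1 to 2421 CPM for Col3a1. The 21 classes share libraries and depth, and for Cxcl12 the correlation rests on the fibroblast-like class, so both are given as descriptions.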

How the data were processed

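Single-cell counts came from CD45+ cells sorted from synovial digests and made into Chromium 3′ v3.1 libraries. The authors aligned reads to mm10 with Cell Ranger 7 (per the labels), corrected free RNA with SoupX, removed doublets with DoubletFinder and filtered cells in Seurat, and deposited whole-number UMI counts with a gene list and a barcode list. Of the stored entries 1.68% are 0, as are 1.70% of those of Cxcr4 (372) and 10.2% of those of Cxcl12 (29); these counted as not detected. Cells held 666 to 102310 UMIs. No doublet caller was run again.

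Counts were scaled to 10000 per cell, logged, and reduced to 2000 variable genes without Cxcl12 and Cxcr4, 30 principal components and 15 neighbours in scanpy 1.11.5 (Python 3.11.15). Leiden clustering at resolution 1.0 gave 33 clusters (0.5 gave 22, 2.0 gave 50). A cluster took the name whose markers were most frequent among its 10, 30 and 100 leading genes by fold, with at least 3 markers detected in 25% of its cells (a cycling cluster that matched no class was named from detected macrophage markers); 1 cluster of 334 cells stayed unnamed and 53 cells were in classes under 50 cells. Since names were rebuilt from markers, they may differ from the study's. Class levels are UMIs summed over cells, as CPM, with exact Poisson 95% intervals (ratios: exact conditional binomial; shares: Wilson). A gene counted as different between stages when the ranges of the 6 libraries did not overlap. The rule was run on simulated counts with equal depth in both stages, unlike here, so its error rate in these data is not known. An upper limit for a count of 0 uses 3 counts.

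The members and lists were chosen with earlier results of these data known. Named genes are the 2 members, the 28 pathway genes, the 5 genes most like each member, and the genes leading a cluster. Grk2 and Grk3 appear under their older symbols Adrbk1 and Adrbk2.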

Additional observations from a re-analysis of the deposited data

How the results depend on the processing

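Nothing in these data links a library to PBS or PEPITEM, so the spread between libraries holds any treatment effect, and Cxcl12 outside fibroblast-like cells rests on 170 UMIs. No paired analysis was possible because the library numbers are not tied to samples, so no treatment groups were compared. Stages were compared within each library, as values with no test.

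The immature-to-mature ratio of Cxcr4 in neutrophil-like cells (0.201) stayed below 1 under each alternative tried: 0.218 at resolution 0.5, 0.185 at 2.0, 0.242 when each cell was named by its own markers, and 0.189 to 0.211 leaving out a library. Added after seeing the data, it was 0.131 without the cluster holding Il1b and Cxcl2, 0.265 with granule, S100a8 and S100a9 UMIs outside the total, and 0.489 per cell. The precursor-to-mature ratio in the B lineage (0.932) was 0.890 as the median of libraries, 0.861 to 0.968 leaving out a library, and reversed to 1.30 per cell, also added after seeing the data. Cxcl12 in fibroblast-like cells (1013 CPM) was 765 CPM as the median of libraries, 775 to 1163 CPM leaving out a library, and 750.3 CPM without cells holding Adipoq; other clusterings and the per-cell naming gave 1013 to 1028 CPM. Cxcl12 in resident Lyve1 macrophage-like cells (1.80 CPM) lay between 1.51 and 2.14 CPM throughout. The share of cells with a Cxcr4 UMI (65.4%) was 28.9% at 2000 UMIs per cell, 66.5% with stored zeros counted, 67.1% as the median of libraries and 64.0% to 67.2% leaving out a library. That for Cxcl12 (0.771%) was 0.289% at 2000 UMIs per cell and 0.615% to 0.933% leaving out a library.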
